A study of Mus musculus with 25 samples.

Results

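The neural lobe of the pituitary was followed through 5 genes, *Avp*, *Oxt*, *Rax*, *Nkx2-1* and *Gfap*, which were looked up by symbol in the gene columns of the deposited tables. All 5 were among the 15315 genes of the long-term table, and 3 of them (*Avp*, *Rax* and *Gfap*) were among the 14007 genes of the short-term table. *Oxt* and *Nkx2-1* are therefore described in the long-term experiment, and their short-term levels were not analysed here. The measurements were RNA-seq of bulk pituitaries of shRb mice. These mice carry a Rosa26-rtTA allele together with Col1a1-shRb5-4, so that doxycycline (dox) in the drinking water induces an shRNA against *Rb* and a linked GFP reporter. All mice descended from a single targeted embryonic stem cell clone with a single shRNA, and rtTA was driven by the broadly active *Rosa26* promoter, so that knock-down was not limited to the pituitary. Every mouse had received dox as a young adult, and no group without dox was part of these tables.

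In the long-term experiment, sequenced from poly(A)-enriched RNA, 3 mice had received dox for 6 weeks (6w+dox, all female), 4 mice for 12 weeks (12w+dox, 2 female and 2 male), and 5 mice for 6 weeks followed by 6 weeks without dox (12w-res, 3 female and 2 male). In the short-term experiment, sequenced by the labels after depletion of ribosomal RNA (the study's methods speak of mRNA libraries for both experiments), 3 male mice had received dox for 16 weeks (16w+dox), and 4 female, 3 male and 3 female mice were collected 1, 3 and 5 days after a 16-week treatment ended (1d-dox, 3d-dox and 5d-dox). Sex and time off dox cannot be told apart in the 1d-dox and 5d-dox comparisons with 16w+dox. Reads on genes ranged from 19066053 to 28968476 per mouse in the long-term table and from 9573101 to 13036900 in the short-term table. *Rb1* checked the long-term labels, at 1.86 to 5.09 FPM (the deposited unit, reads scaled by DESeq2 size factors) in the 7 mice on dox and 16.1 to 20.3 FPM in the 12w-res mice. GFP checked the short-term labels, with a mean of 1246.5 FPM ± 192 (SD, n = 3) in 16w+dox and 11.7 FPM ± 3.08 (SD, n = 3) in 5d-dox. *Pomc*, the hormone precursor gene of melanotrophs and corticotrophs, held between 12.9% and 43.2% of the long-term reads on genes. By group its share was 13.6% to 32.2% in 6w+dox, 12.9% to 23.0% in 12w+dox and 39.1% to 43.2% in 12w-res.

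The neural lobe is the part of the pituitary that grows down from the hypothalamus. It holds the axon endings of hypothalamic neurons that make vasopressin and oxytocin, and the glial cells that surround these endings, called pituicytes. *Avp* encodes the vasopressin precursor and *Oxt* the oxytocin precursor. Their mRNAs are made in cell bodies that lie in the hypothalamus and are also found in the axons. *Rax* and *Nkx2-1* encode homeobox transcription factors of the developing hypothalamus and infundibulum that pituicytes keep in the adult, and *Gfap* encodes an intermediate filament of astrocytes and related glia.

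*Avp* and *Oxt* lie tail to tail on mouse chromosome 2, *Oxt* on the plus strand at chr2:130574519-130577054 and *Avp* on the minus strand at chr2:130580620-130582588 (RefSeq, GRCm38.p6), with 3565 bases between their 3′ ends. The stretches of the first exon that encode the 9 amino acids of each hormone are shown because they hold the hormones themselves. They were read from the longest coding GENCODE vM21 transcripts, lie at chr2:130582446-130582472 for *Avp* and chr2:130576267-130576293 for *Oxt*, and are written 5′ to 3′ on the strand of the gene, with capitals at the bases that differ.

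Avp nonapeptide codons: tgctacTtccagaactgcccAAGAggc

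Oxt nonapeptide codons: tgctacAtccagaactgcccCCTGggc

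These 27-base stretches differed at 5 positions and were the same at 22. Of the differing bases, 1 lies in the third codon, 1 in the seventh and 3 in the eighth. The third and the eighth amino acids are those by which mouse vasopressin and oxytocin are known to differ. The 250 bases before each transcript start are shown next as a description. Whether they have a part in the mRNA levels described further on was not tested. The sequences came from RefSeq (GRCm38.p6), at chr2:130582589-130582838 on the minus strand for *Avp* and at chr2:130575919-130576168 on the plus strand for *Oxt*, where the start is that of a transcript inside the RefSeq span of the gene. Capitals mark GGTCA (a nuclear receptor half-site), CACGTG (an E-box) and ATAAA (letters found in many TATA boxes), on either strand.

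Avp promoter: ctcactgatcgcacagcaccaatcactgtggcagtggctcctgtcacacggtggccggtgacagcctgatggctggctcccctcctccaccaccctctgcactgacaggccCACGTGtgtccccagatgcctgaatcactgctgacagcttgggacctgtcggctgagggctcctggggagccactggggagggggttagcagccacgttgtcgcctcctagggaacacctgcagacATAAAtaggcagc

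Oxt promoter: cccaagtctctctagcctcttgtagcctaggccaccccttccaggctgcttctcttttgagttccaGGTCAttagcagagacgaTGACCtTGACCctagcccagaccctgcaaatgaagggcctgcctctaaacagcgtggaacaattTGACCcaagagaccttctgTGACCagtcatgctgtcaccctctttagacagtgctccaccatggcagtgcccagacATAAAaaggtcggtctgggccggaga

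The *Oxt* window held 5 matches of GGTCA, which began 184, 166, 160, 102 and 83 bases before the start, and the *Avp* window held 0. Of 32851 promoter windows of this length, 35.2% held at least 1 such match. The E-box CACGTG was found once in *Avp*, 139 bases before the start, and not in *Oxt*, and 6.02% of the windows held it. The letters ATAAA were found once in each, 13 bases before the start in *Avp* and 26 in *Oxt*, against 37.3% of all windows. Of the other motifs searched, TGACG, the core of the cAMP response element, was in neither window (17.8% of all windows held it), and neither was the homeobox core TAATT (25% of all windows). A match describes letters in the window and no binding was measured. The motifs were chosen with the sequences in view.

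The first comparison asked how the neural lobe genes stood after 12 weeks of dox against 6 weeks, while the pituitary lesions grew. *Avp*, *Oxt*, *Rax* and *Nkx2-1* were all lower at 12w+dox, with no overlap between the groups, and *Gfap* was lower by less and did not pass the test. Both 12w+dox and 12w-res mice were collected later after the start of dox than 6w+dox mice, with no group without dox. Elapsed time therefore cannot be told apart from longer dox or lesion growth in 12w+dox, or from dox removal in 12w-res, against 6w+dox. In bulk tissue, fewer cells or axon endings of a kind and less RNA in each of them cannot be told apart. The sources used here do not say how much neural lobe was taken with each gland, and its part in these values was not tested.

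*Avp* was at 83.1, 28.3 and 28.0 FPM in the 3 6w+dox mice and at 3.11, 1.31, 2.46 and 1.76 FPM in the 4 12w+dox mice. The lowest 6w+dox mouse thus stood far above the highest 12w+dox mouse, and 1 of the 6w+dox mice stood apart from the other two. The 6w+dox values rested on 635 to 1427 reads per mouse, those of 12w+dox on 45 to 89. *Avp* fell by 3.99 on the log2 scale (SE 0.39), a 15.9-fold lower value of FPM + 0.5 (limma, adjusted p = 0.000136).

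*Oxt* was at 19.8, 4.05 and 5.26 FPM in the 6w+dox mice and at 0.803, 0.350, 0.493 and 0.0559 FPM in the 12w+dox mice. The same 6w+dox mouse, replicate 1, was highest for both hormone precursors, and the last of the 12w+dox values was 2 reads. *Oxt* fell by 3.20 (SE 0.49, limma, adjusted p = 0.000911), which is a 9.17-fold lower value of FPM + 0.5.

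*Rax*, at 65934639 to 65939089 on the minus strand of its chromosome (RefSeq, GRCm38.p6), is a gene with 2 coding-transcript exons. It was at 11.2, 2.54 and 6.37 FPM in the 6w+dox mice and at 1.15, 0.787, 0.708 and 0.726 FPM in the 12w+dox mice. The groups did not overlap, and *Rax* fell by 2.23 (SE 0.38, limma, adjusted p = 0.00159).

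*Nkx2-1* (chr12:56531935-56536908, minus strand) was at 6.23, 2.98 and 5.09 FPM in the 6w+dox mice and at 0.489, 0.495, 0.678 and 0.754 FPM in the 12w+dox mice. It had the smallest spread of the 4 called genes within 6w+dox, with a coefficient of variation of 34.5% against 68.3% for *Avp*, 90.3% for *Oxt* and 64.6% for *Rax*. *Nkx2-1* fell by 2.21 (SE 0.27, limma, adjusted p = 0.000253).

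*Gfap* (chr11:102887336-102897200, minus strand) was at 4.54, 2.76 and 5.22 FPM in the 6w+dox mice and at 2.30, 2.45, 1.88 and 1.84 FPM in the 12w+dox mice. Its groups did not overlap either, but the change of -0.80 (SE 0.29, 95% interval -1.42 to -0.19) missed the threshold (limma, adjusted p = 0.0574). Without 6w+dox replicate 2, the lowest mouse of its group, the change was -1.04 and passed (limma, adjusted p = 0.0480).

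**Figure D1:**
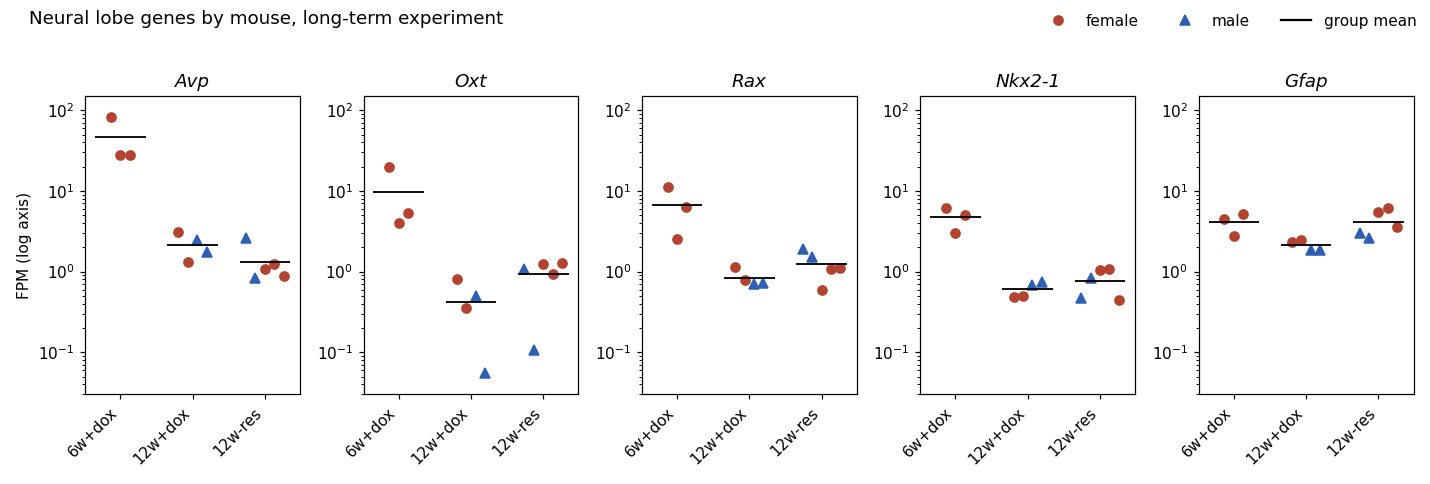
FPM of each gene in each mouse of the long-term experiment, on a log axis, by group; circles are female mice, triangles male mice and bars the group mean. For *Avp*, *Oxt*, *Rax* and *Nkx2-1* every 6w+dox mouse lies above every 12w+dox and 12w-res mouse, while the 12w-res values of *Gfap* overlap those of 6w+dox.

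To be called, a gene had to pass 0.05 after adjustment and change by more than 1 on the log2 scale. By this rule 4 of the 5 genes were called lower and 0 higher, against 4.04% of all 15315 genes called lower and 3.15% called higher. All 5 were lower in every 12w+dox mouse than in every 6w+dox mouse, against 12.4% of all genes. With 3 mice against 4, a two-sided exact permutation test cannot go below p = 0.0286, and each of the 5 genes reached that value. This adds little to the lack of overlap, from which such a value largely follows. On the higher side 12.9% of all genes had no overlap. The median log2 change was -2.23 over the 5 genes and -0.0063 over all genes. When the values were scaled by total reads in place of size factors, the median of all genes moved to 0.29 and the calls over all genes from 483 higher and 619 lower to 1058 higher and 317 lower, while the count for the 5 genes stayed at 4 lower. The same scaling changed the calls over all genes from 955 higher and 772 lower to 244 and 3364 in 12w-res against 12w+dox, and from 890 higher and 892 lower to 497 and 1638 in 12w-res against 6w+dox, where the median moved to -0.33. In the short-term experiment it moved the median by more than 0.1 only in 3d-dox against 16w+dox, to 0.14.

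The 6w+dox mice were all female, so the fit was repeated in female mice only, with 3 mice at 6w+dox and 2 at 12w+dox. *Avp* was then at -4.00 (limma, adjusted p = 0.00538), *Oxt* at -2.95 (adjusted p = 0.0190), *Rax* at -2.10 (adjusted p = 0.0377) and *Nkx2-1* at -2.36 (adjusted p = 0.00966), each still called lower. Without 6w+dox replicate 1, the mouse with the highest *Avp*, *Oxt*, *Rax* and *Nkx2-1*, the changes were -3.48, -2.53, -1.78 and -2.01, and the same 4 genes were called by limma (adjusted p from 0.000268 to 0.00693).

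The second comparison asked whether these genes differed when dox had been removed for the last 6 of 12 weeks, against 12 weeks of continuous dox. No neural lobe gene was called in either direction, against 6.24% of all genes called higher and 5.04% called lower. By limma, 1 of the 5 (*Gfap*) had an unadjusted p under 0.05, as did 47.3% of all genes. edgeR and DESeq2 on the recovered reads also called 0. *Gfap* was higher in every 12w-res mouse than in every 12w+dox mouse, as were 17.1% of all genes.

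*Gfap* was at 3.02, 2.59, 5.51, 6.20 and 3.59 FPM in the 12w-res mice, and the lowest of these stood just above the highest 12w+dox mouse at 2.45 FPM. Its change of 0.78 (SE 0.25, 95% interval 0.24 to 1.32) passed the p threshold but not the minimum fold (limma, adjusted p = 0.0252). The exact permutation test gave p = 0.0238. The 3 female 12w-res mice (3.59 to 6.20 FPM) were all above the 2 male mice (2.59 and 3.02 FPM), and in 12w+dox the 2 females (2.30 and 2.45 FPM) were above the 2 males (1.84 and 1.88 FPM). Under scaling by total reads, which moved the median of all genes to -0.61, the change of *Gfap* was 0.22 (limma, adjusted p = 0.469).

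*Avp* was at 2.60, 0.845, 1.09, 1.24 and 0.884 FPM in the 12w-res mice, from 16 to 50 reads each, and overlapped 12w+dox. Its change was -0.56 (SE 0.34, 95% interval -1.30 to 0.17, limma, adjusted p = 0.210). Under scaling by total reads it was -1.06 and was called lower (limma, adjusted p = 0.00918). With that scaling the median of all genes was -0.61, and 3364 of 15315 genes were called lower.

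*Oxt* was at 1.09, 0.106, 1.23, 0.945 and 1.27 FPM in the 12w-res mice, where the second value was 2 reads and the others 16 to 27. All but that mouse stood above the highest 12w+dox mouse at 0.803 FPM. The change was 0.60 (SE 0.43, 95% interval -0.33 to 1.52, limma, adjusted p = 0.295).

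*Rax* was at 1.92, 1.53, 0.592, 1.06 and 1.11 FPM and *Nkx2-1* at 0.468, 0.845, 1.05, 1.06 and 0.442 FPM in the 12w-res mice. Both overlapped 12w+dox, with changes of 0.34 (95% interval -0.38 to 1.05) and 0.18 (95% interval -0.34 to 0.69). For *Rax* the sexes differed in the sign of the change, 0.87 in males and -0.06 in females. The difference of 0.93 between the sexes was not called when all genes were tested for it (limma, adjusted p = 0.999), nor was that of any other of the 5 genes.

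The third comparison set 12w-res against 6w+dox, the point at which dox had been removed. *Avp*, *Oxt*, *Rax* and *Nkx2-1* were called lower, against 5.82% of all genes called lower and 5.81% called higher, and 4 of the 5 genes had no overlap with 6w+dox on the lower side, against 15.9% of all genes. This comparison shares its 6w+dox mice with the first and its 12w-res mice with the second, so the comparisons are not independent. *Avp* fell by 4.56 (SE 0.37, limma, adjusted p = 8.17e-07), a 23.5-fold lower value of FPM + 0.5. *Oxt* fell by 2.60 (SE 0.47, adjusted p = 0.000855), *Rax* by 1.89 (SE 0.36, adjusted p = 0.00129) and *Nkx2-1* by 2.03 (SE 0.26, adjusted p = 5.60e-05) in the same limma fit. Without 6w+dox replicate 1 the changes were -4.04, -1.94, -1.44 and -1.83 for *Avp*, *Oxt*, *Rax* and *Nkx2-1*, and all 4 were still called (limma, adjusted p from 2.88e-06 to 0.00777). *Gfap* overlapped 6w+dox, at -0.02 (95% interval -0.61 to 0.56, limma, adjusted p = 0.957), and its sign turned under several alternatives.

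**Figure D2:**
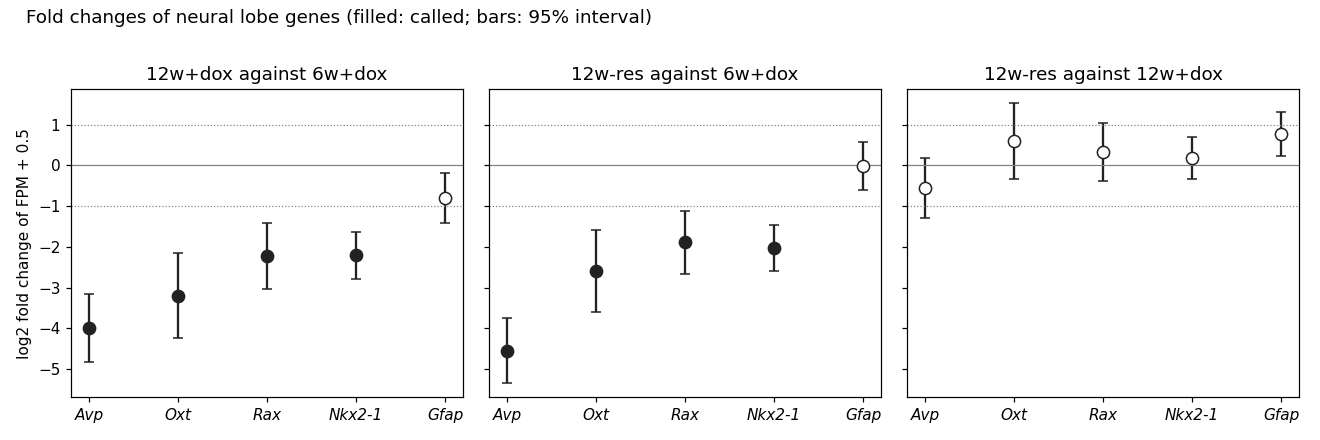
Log2 fold change of FPM + 0.5 of each gene in the 3 long-term comparisons, with 95% intervals from limma; filled points were called, dotted lines mark a log2 fold change of 1 in either direction. *Avp* is the lowest point in both comparisons with 6w+dox, and no point is filled in 12w-res against 12w+dox.

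Per kilobase of the longest coding transcript (577 bases for *Avp*, 537 for *Oxt*, 2323 for *Rax*, 2809 for *Nkx2-1* and 2648 for *Gfap*), the mean level in 6w+dox was highest for *Avp* at 80.5 FPM per kb. *Oxt* followed at 18.1, *Rax* at 2.88, *Nkx2-1* at 1.70 and *Gfap* at 1.58 FPM per kb. Without 6w+dox replicate 1 the values were 48.8, 8.67, 1.92, 1.44 and 1.51 FPM per kb in the same order, so that *Nkx2-1* and *Gfap* changed places. In 12w+dox *Avp* was still highest at 3.74 FPM per kb, followed by *Gfap* at 0.80, *Oxt* at 0.79, *Rax* at 0.36 and *Nkx2-1* at 0.21. In 12w-res the order was *Avp* at 2.31, *Oxt* at 1.73, *Gfap* at 1.58, *Rax* at 0.54 and *Nkx2-1* at 0.28 FPM per kb. Within each gene the order of the groups was 6w+dox first for *Avp*, *Oxt*, *Rax* and *Nkx2-1*, and for these 4 genes the 12w+dox and 12w-res values overlapped. For *Gfap*, 12w+dox was lowest, below every 12w-res mouse, and 6w+dox and 12w-res overlapped.

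In the fitted means, which include the pseudocount added to FPM before the log, the genes did not all move by the same factor. The mean log2 ratio of *Avp* to *Rax* was 2.71 in 6w+dox, 0.95 in 12w+dox and 0.05 in 12w-res, and that of *Avp* to *Oxt* was 2.34, 1.54 and 0.38. In 12w+dox the mean of *Oxt*, 0.425 FPM, lay below this pseudocount, which makes the fall of *Oxt* look smaller. Without the pseudocount, mean *Avp* went from 46.5 FPM in 6w+dox to 2.16 FPM in 12w+dox, and mean *Oxt* from 9.70 to 0.425 FPM. The lower *Avp* to *Oxt* ratio in 12w+dox is therefore not read as a larger fall of *Avp*. The ratio of *Rax* to *Nkx2-1*, the pair of transcription factors, was 0.30, 0.28 and 0.44. Over the 10 pairs of genes and 3 comparisons, 30 ratios were tested by two-sided exact permutation tests, and 0 passed after adjustment over the 30 (smallest adjusted p = 0.0612). At these group sizes the smallest unadjusted values that the exact tests can give are 0.0286, 0.0179 and 0.00794. In both comparisons with 6w+dox most of the ratios stood at that smallest value. With so few mice these tests cannot decide whether the genes moved by the same factor.

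Genes with the most similar pattern were ranked by Pearson's r of log2(FPM + 0.5) over the 12 long-term mice, as a description without a test, since all points share the same libraries and groups. The genes ranked first were *Ism2* for *Avp* (r = 0.974, and 0.732 after the group means were subtracted), *Pm20d1* for *Oxt* (0.954 and 0.761), *Gm11413* for *Rax* (0.973 and 0.891), *Gfra3* for *Nkx2-1* (0.972 and 0.724) and *Acsbg1* for *Gfap* (0.928 and 0.903). The next 4 were *Sox3*, *Gamt*, *Dnase2a* and *Ewsr1* for *Avp*, and *Gp1bb*, *Ube2d1*, *Cldn10* and *Liph* for *Oxt*. For *Rax* they were *Abca4*, *Cldn10*, *Tbx3* and *Tmem44*, for *Nkx2-1* *Srek1ip1*, *Fam219aos*, *Gm11413* and *Tmem44*, and for *Gfap* *Cpm*, *Dhrs11*, *Dok5* and *Hpn*. *Cldn10* thus stood in the lists of *Oxt* and *Rax*, and *Gm11413* and *Tmem44* in those of *Rax* and *Nkx2-1*. After the group means were subtracted, r of these next 4 genes ran from 0.301 (*Ewsr1* for *Avp*) to 0.864 (*Liph* for *Oxt*). Before that step *Ewsr1* had r = 0.960, so part of the likeness lies in differences between the groups. Among the 5 genes, *Avp* and *Oxt* had r = 0.899 (0.737 within groups), *Avp* and *Nkx2-1* 0.912 (0.192 within groups), and *Avp* and *Gfap* 0.229 (0.0407 within groups).

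Other genes of the pituicyte and the infundibulum were read from a list of 14, of which 13 were in the long-term table. At 12w+dox 7 of the 13 were called lower than at 6w+dox and 0 higher, with a list median of -1.02. *Fgf10*, a growth factor of the infundibulum, fell by 2.84 (limma, adjusted p = 0.000743), from a mean of 12.8 FPM ± 4.55 (SD, n = 3) to 1.51 FPM ± 1.27 (SD, n = 4). *Tbx3*, a transcription factor of the ventral hypothalamus, fell by 2.15 (adjusted p = 0.000290) and *Col25a1*, a collagen of pituicytes, by 2.12 (adjusted p = 0.00363) in the same limma fit. In 12w-res against 12w+dox 2 of the 13 were called higher and 0 lower, *Bmp4* at 1.15 (limma, adjusted p = 0.00269) and *Wnt5a* at 1.04 (adjusted p = 0.00430), both secreted signals. Against 6w+dox, 12w-res had 6 of the 13 called lower and 0 higher, led by *Fgf10* at -2.20, *Lhx2* at -1.86 and *Col25a1* at -1.70. With total-read scaling the counts were 5 lower and 1 higher in the first comparison and 7 lower in the last. In 12w-res against 12w+dox they became 0 higher and 3 lower (*Lhx2*, *Srebf1* and *Vax1*). Over all 15315 genes, that scaling called 244 higher and 3364 lower in 12w-res against 12w+dox. The 3 lower calls are therefore not read as a result about this list. The same background holds for the other lists in that comparison.

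Astroglial genes, the wider group to which *Gfap* belongs, were called lower for 6 of 14 at 12w+dox against 6w+dox and higher for 0, with a list median of -0.70. The largest changes were those of *Gja1*, a gap junction protein (-1.50), *Nes*, an intermediate filament (-1.48), and *Slc1a2*, a glutamate transporter (-1.37). In 12w-res against 12w+dox 6 of 14 were called higher and 0 lower, with *Nes* at 1.70, *Vim* at 1.66 and *Clu* at 1.57 and a list median of 0.87. Against 6w+dox, 12w-res had 2 called higher (*Vim* at 1.29 and *Clu* at 1.02) and 1 lower (*Slc1a2* at -1.16). With total-read scaling these counts fell to 3 lower, to 2 higher, and to 0 higher and 1 lower, in that order. *Vim*, *Clu*, *Nes* and *Gja1* are also expressed outside glia.

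Genes for the processing, release and receptors of neurohypophysial peptides gave 1 of 12 called higher and 1 lower at 12w+dox against 6w+dox. These were *Lnpep*, an aminopeptidase that cleaves oxytocin and vasopressin (1.99, limma, adjusted p = 0.00148), and *Cartpt*, a neuropeptide precursor (-2.48, adjusted p = 0.00224). In 12w-res against 12w+dox 6 of 12 were called higher, led by the neuropeptide gene *Gal* at 3.95, the prohormone convertase gene *Pcsk1* at 1.89 and the amidating enzyme gene *Pam* at 1.65. Against 6w+dox, 12w-res had 5 called higher, among them *Gal* at 4.37 and *Pam* at 1.44, and 1 lower, the vasopressin receptor gene *Avpr1b* at -1.80. With total-read scaling 3 were called higher and 2 lower in 12w-res against 12w+dox, and 2 higher and 2 lower against 6w+dox. Hormone cells of the anterior and intermediate lobes also use convertases and *Pam*, and corticotrophs *Avpr1b*.

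Marker genes of other cells moved in the same comparisons, and their part in the values of the neural lobe genes was not tested. At 12w+dox against 6w+dox, 6 of 9 anterior lobe genes were called lower, led by *Gh* (-4.57), *Prl* (-4.32) and *Pou1f1* (-2.89), and the summed level of the list ran from 58670.9 to 94164.7 FPM in 6w+dox and from 1218 to 13061 FPM in 12w+dox. Stem and folliculostellate genes gave 3 of 5 lower (*Aldh1a2* at -2.73, *Cyp2f2* at -1.86 and *Sox9* at -1.03), with sums of 159.6 to 182.7 against 71.7 to 99.9 FPM. Endothelial genes gave 2 of 5 lower (*Plvap* at -1.74 and *Emcn* at -1.30), with sums of 166 to 218 against 55.9 to 118.5 FPM. Melanotroph genes gave 2 of 5 higher (*Pax7* and *Drd2*, both at 1.32), with sums of 109631 to 381378 against 96583 to 198910 FPM, which were nearly all *Pomc* (107477 to 376655 against 93231 to 194592 FPM, not called). With total-read scaling the anterior lobe and melanotroph counts were the same, while 2 of 5 stem and folliculostellate genes (without *Sox9*) and 1 of 5 endothelial genes (without *Emcn*) were called lower.

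At the deposited scaling several of these lists stood higher in 12w-res than in 12w+dox, with 4 of 5 endothelial genes called higher (*Cdh5* at 1.56, *Emcn* at 1.48, *Pecam1* at 1.42) and sums of 181.5 to 246 FPM, while with total-read scaling 0 of these 5 were called. Of the anterior lobe genes 2 of 9 were called higher (*Prl* at 4.06 and *Gh* at 2.31, sums of 17338 to 34984 FPM), of the stem and folliculostellate genes 2 of 5 (*Aldh1a2* at 1.32 and *Sox9* at 1.14, sums of 76.3 to 110.4 FPM) and of the melanotroph genes 1 of 5 (*Pcsk2* at 1.37, sums of 458945 to 581250 FPM). With total-read scaling *Prl* and *Gh* were still called higher, but 0 stem and folliculostellate genes were called higher and 1 lower (*Sox2*), and 1 melanotroph gene was called higher (*Pomc*) and 2 lower (*Drd2* and *Pax7*). The summed level of the 5 neural lobe genes was 40.6 to 125 FPM in 6w+dox, 5.14 to 7.85 FPM in 12w+dox and 5.92 to 10.5 FPM in 12w-res. Against 6w+dox, 12w-res had 3 of 9 anterior lobe genes called lower (*Gh* at -2.26, *Ghrhr* at -1.95 and *Tshb* at -1.77), 1 of 5 stem and folliculostellate genes lower (*Aldh1a2* at -1.41), 1 of 5 melanotroph genes higher (*Pcsk2* at 1.13) and 0 of 5 endothelial genes in either direction. With total-read scaling these counts were 4 of 9 lower, 2 of 5 lower, 0 of 5 and 0 of 5.

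Brain tissue near the gland was checked through oligodendrocyte genes and genes of other hypothalamic neurons. Of 12 oligodendrocyte genes 7 were in the long-term table, and *Sox10*, a transcription factor of this lineage, was called lower at 12w+dox (-1.08) and in 12w-res (-1.09), each against 6w+dox. *Sox10* was at 0.356 to 1.98 FPM in 6w+dox, at most 0.154 FPM in 12w+dox and at most 0.158 FPM in 12w-res. Of 14 genes of other hypothalamic neurons 5 were in the table, with sums of 40.0 to 67.6, 42.8 to 94.0 and 67.8 to 102.4 FPM. *Tac1* was called lower at 12w+dox against 6w+dox (-1.04) and higher in 12w-res against 12w+dox (1.07), and *Gad2* was called higher in 12w-res against 6w+dox (1.21), none of which was called with total-read scaling. That scaling instead called *Gad2* higher in 12w+dox and *Slc17a6* lower in 12w-res, each against 6w+dox.

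**Figure D3:**
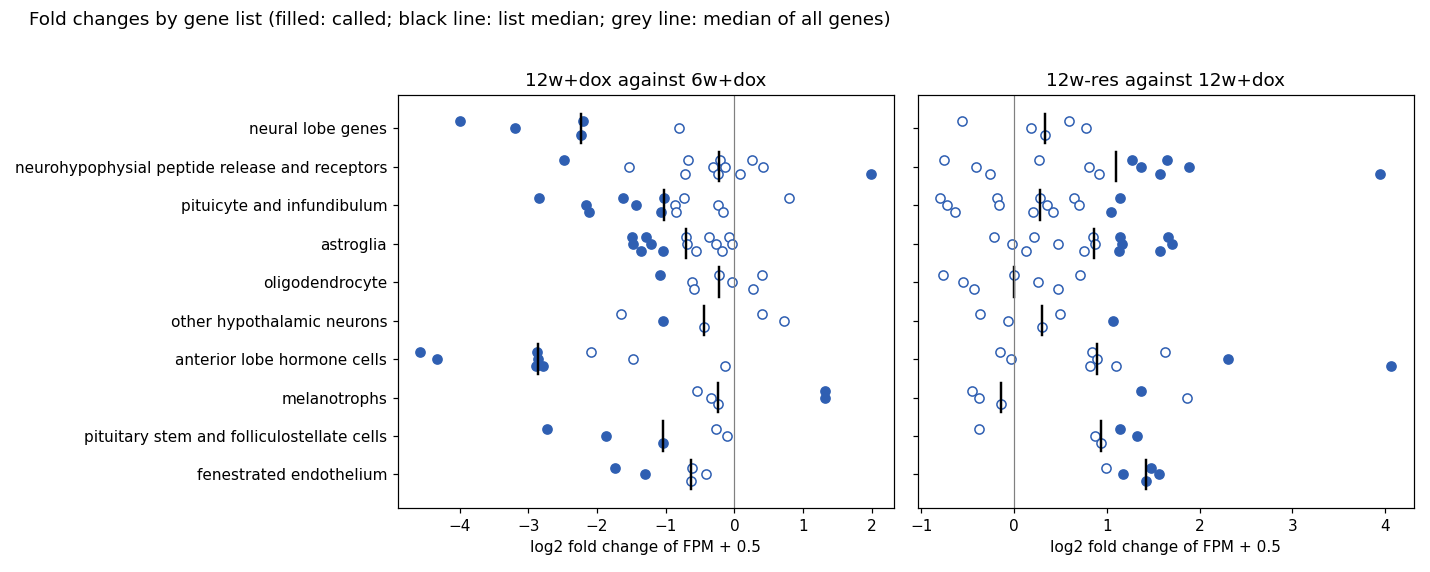
Log2 fold change of FPM + 0.5 of each gene of 10 lists, in 12w+dox against 6w+dox and in 12w-res against 12w+dox; filled points were called, black lines are list medians and the grey line the median of all genes. In the left panel 4 of the 5 neural lobe points are filled on the lower side, and in the right panel 0 of the 5 are filled while 4 endothelial and 6 astroglial points are filled on the higher side, of which 0 and 2 were also called with total-read scaling.

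In the short-term experiment *Avp* and *Rax* had 0 to 15 reads per mouse and *Gfap* 13 to 48, and neither *Avp* nor *Gfap*, the 2 that were tested, was called at any time after dox removal. The background over 13958 tested genes was also low, at 0.043% called for 1d-dox, 0.129% for 3d-dox and 0.193% for 5d-dox, each against 16w+dox, and 0.0143% for 5d-dox against 1d-dox. *Avp* and *Gfap* passed the filter on low reads, and *Rax* did not and was left out of the fit. Of *Avp* and *Gfap*, 0 had an unadjusted p under 0.05 in any of the 4 comparisons by limma, against 6.33% to 16.6% of all genes, and edgeR and DESeq2 also called 0 of them. The tables were scaled separately and, by the labels, prepared differently, so levels are not compared between the tables.

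*Avp* was at 0.0749, 0.0802 and 0.153 FPM in 16w+dox, from 3 to 6 reads per mouse, and at 0.0516, 0.0916, 0.150 and 0.117 FPM in 1d-dox. It was at 0.326, 0.265 and 0 FPM in 3d-dox and at 0.0841, 0.286 and 0.366 FPM in 5d-dox, where the highest counts were 15 and 13 reads. The 3d-dox mouse with 0 reads allows a level of up to 0.0618 FPM (3 reads), counting error only. In 3d-dox and 5d-dox 2 of 3 mice each stood above every 16w+dox mouse, and the groups overlapped. The changes against 16w+dox were -0.00084 at 1 day, 0.18 at 3 days (95% interval -0.25 to 0.60) and 0.29 at 5 days (95% interval -0.14 to 0.71), none of which passed (limma, adjusted p from 0.554 to 0.999). With so few reads the pseudocount of 0.5 FPM exceeds the level itself and draws these fold changes towards 0, and the 5-day value ran from 0.17 to 1.26 over the alternatives.

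*Rax* was at 0.225, 0.0802 and 0.204 FPM in 16w+dox, at 0.0773, 0.244, 0.249 and 0.257 FPM in 1d-dox, at 0.217, 0.0408 and 0 FPM in 3d-dox, and at 0.112, 0.130 and 0.113 FPM in 5d-dox. No mouse had more than 11 reads. The 3d-dox mouse with 0 reads was the same one as for *Avp*, replicate 3. Two-sided exact permutation tests gave p from 0.143 to 0.486 over the 4 comparisons, of which 3 mice against 3 cannot go below 0.1.

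*Gfap* had the most reads of these genes, 13 to 48 per mouse. It was at 0.874, 0.535 and 0.536 FPM in 16w+dox, at 0.799, 0.489, 0.698 and 0.304 FPM in 1d-dox, at 0.956, 0.979 and 0.432 FPM in 3d-dox, and at 0.561, 1.12 and 0.619 FPM in 5d-dox. All groups overlapped. Its changes against 16w+dox were -0.11 (95% interval -0.59 to 0.37), 0.15 (-0.36 to 0.66) and 0.13 (-0.38 to 0.64) at 1, 3 and 5 days, and 0.24 (-0.24 to 0.71) for 5d-dox against 1d-dox, both female groups. The intervals thus stayed within the minimum fold of the call on either side, at the pseudocount used.

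**Figure D4:**
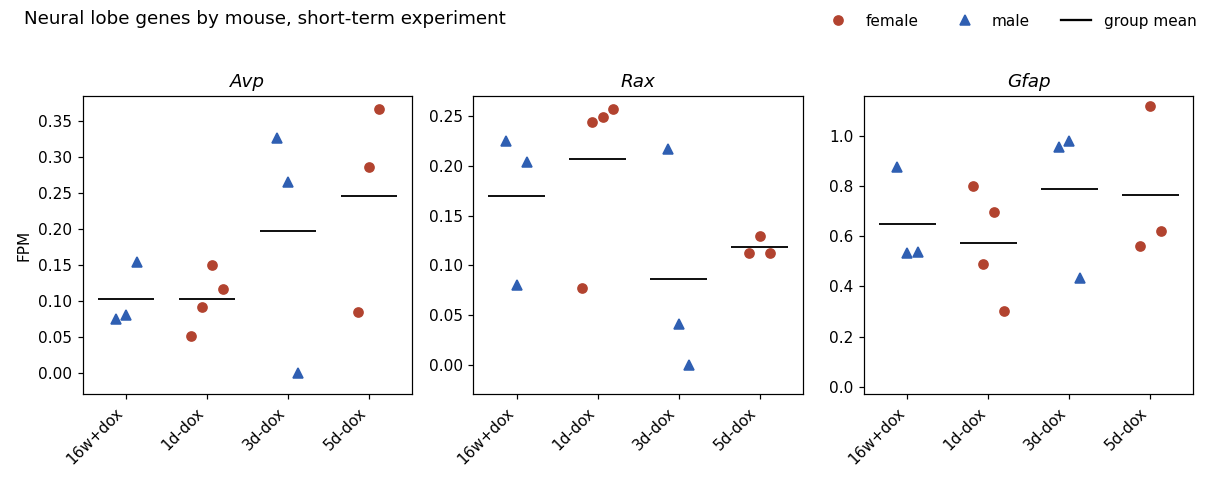
FPM of *Avp*, *Rax* and *Gfap* in each mouse of the short-term experiment, by group, on linear axes; circles are female mice, triangles male mice and bars the group mean. Groups overlap for each gene, and 1 of the 3d-dox mice is at 0 for both *Avp* and *Rax*.

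The other lists gave few calls in this experiment. Of the pituicyte and infundibulum genes 11 were in the short-term table and 10 were tested, of which 0 were called in any of the 4 comparisons (summed level of 82.7 to 124 FPM over all mice), and the same held for 12 astroglial and 11 peptide release genes. *Lhb*, a gonadotropin subunit gene of the anterior lobe, was called lower at 1 day (-2.57) and 5 days (-2.65) and higher at 3 days (1.91), each against the male 16w+dox group, and with total-read scaling *Fshb*, another such gene, was also called higher at 3 days. The endothelial cadherin gene *Cdh5* was called lower at 1 day (-1.10, not called with total-read scaling) and 5 days (-1.22). The mice of the 1-day and 5-day groups were female. The genes with the pattern most like *Avp* over the 13 mice were *Dusp19* (r = 0.825), *Cebpa*, *Trp63*, *Pla2g2c* and *Unc45a*, and those most like *Gfap* were *Cecr2* (r = 0.848), *C3ar1*, *Impa2*, *Plau* and *Nelfa*, again as a description over shared libraries.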

How the data were processed

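Pituitary RNA of 25 shRb mice was sequenced as paired-end reads. Alignment by the authors used STAR, with default settings, against mm10. They took RefSeq genes with enough reads and deposited 2 tables of a signal per gene and mouse, FPM, which is the read count scaled by DESeq2 size factors. The counting tool and the use of strand are not given in the sources used here. Whole reads could be recovered, since 100% of the values in each table lay within 0.1 of a whole multiple of what 1 read is worth. Lines naming no gene (4 in the short-term table, holding 68.8% to 75.0% of a library, and 2 blank lines in the long-term table) stayed out of depths and tests.

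Mice were grouped by the labels. Values were tested as log2(FPM + 0.5) with limma 3.58.1 in R 4.3.3 (trended prior, Benjamini-Hochberg adjustment over all tested genes), with all groups of a table in 1 fit and no fit across tables, in the 15315 and 13958 genes with 10 or more reads in over 50% of mice of any group. The thresholds and filter follow the study's methods. Single genes were also compared by exact permutation tests. The scripts were tested on simulated data. p-values and intervals rest on the spread between mice, and the floor of 3 reads covers counting error only. Total-read counts of the lists and levels without 6w+dox replicate 1 were added after seeing the data.

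The genes, the lists (pituicyte and infundibulum, astroglia, peptide release, oligodendrocyte, other hypothalamic neurons, anterior lobe, melanotroph, stem and folliculostellate, and endothelial genes) and the tests were chosen with earlier results of these data known. The text names the 5 genes, *Rb1*, GFP, *Pomc*, *Gh* and *Prl*, up to 3 called genes of largest change per list and comparison, and the 5 genes of most similar pattern. *Srebf1*, *Vax1*, *Six3*, *Sox2*, *Slc17a6*, *Slc32a1*, *Agrp* and *Fshb* were named after their values were seen. The results of some genes are left out. *Pcsk2*, *Sox9* and *S100b* stand in 2 lists each. All 5 symbols matched the RefSeq table of GRCm38.p6, and transcript lengths came from GENCODE vM21. Alternatives were edgeR 4.0.16 (quasi-likelihood) and DESeq2 1.42.0 on recovered reads, total-read and TMM scaling, pseudocounts of 0.1 and 1, other read filters, only the groups compared, no minimum fold, a replicate block, sex as a covariate, female mice only, and each mouse left out.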

Additional observations from a re-analysis of the deposited data

Results flagged for a closer look

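Among the 13 sets of 4 or 5 mice examined for 1 value far from the rest, 3 held such a value, where chance alone flags about 1 set in 20. *Avp* was at 2.60 FPM in 12w-res replicate 1, against 0.845 to 1.24 FPM in the other 4 mice of that group, and without this mouse the change against 12w+dox was -0.77 (limma, adjusted p = 0.0827). *Oxt* was at 0.106 FPM (2 reads) in 12w-res replicate 2, against 0.945 to 1.27 FPM in the other 4, and without it the change was 0.88 (limma, adjusted p = 0.104). *Rax* was at 0.0773 FPM (3 reads) in 1d-dox replicate 1, against 0.244 to 0.257 FPM in the other 3 mice.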

How the results depend on the processing

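The counts of 4 genes called lower in 12w+dox and in 12w-res against 6w+dox kept their value under the alternatives run, except that requiring 10 reads in every mouse left *Oxt* and *Nkx2-1* untested and 2 genes called in each, and that without 6w+dox replicate 2 *Gfap* made 5 in the first. In 12w-res against 12w+dox, 1 gene was called lower with total-read scaling (*Avp*, -1.06), and 1 higher with no minimum fold (*Gfap*). Total-read scaling called 3364 of all 15315 genes lower in that comparison, with a median of -0.61. Signs turned only for changes that were not called. With total-read scaling *Nkx2-1* was at -0.20 and *Rax* at -0.095 in 12w-res against 12w+dox, and *Rax* at -0.059 in female mice only. *Gfap* in 12w-res against 6w+dox was at 0.0088 with edgeR, 0.0028 with DESeq2, 0.19 with sex as a covariate and 0.27 in female mice, and ran from -0.26 to 0.14 as each mouse was left out. In 12w+dox against 6w+dox it ran from -1.04 to -0.64. At 1 day *Avp* was at 0.0055 with edgeR, 0.0010 with DESeq2 and 0.00064 with total-read scaling, and ran from -0.038 to 0.058 as each mouse was left out, while *Gfap* ran from -0.21 to 0.027 and, at 5 days, from -0.062 to 0.26. The causes were not tested.

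Same-numbered mice share only a number (1 of 10 long-term and 3 of 18 short-term pairs had correlated deviations over 0.1). With the replicate number as a block, 4 genes were again called lower in each comparison with 6w+dox, no call changed, and *Gfap* at 1 day was 0.021. In the short-term experiment *Avp* had at most 15 reads and *Rax* at most 11 per mouse.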
